A study of Mus musculus with 8 samples.

Results

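The protein-coding genes of the cytoplasmic ribosome were followed across 8 mouse tumours from a conditional model of mesothelioma, a cancer of the serosal lining. Members were the entries typed protein-coding whose symbol is that of a large subunit (Rpl), small subunit (Rps) or stalk (Rplp) protein, with at least 100 counts summed over the 8 tumours. Of 35275 genes in the table, 76 matched the name and type and 75 reached the count minimum, 30 of the small (40S) subunit and 45 of the large (60S) subunit. Rpl24 was left out with 61 counts in all, between 3 and 21 in each tumour labelled Pak2-null and between 0 and 9 in each wild-type tumour. In the annotation, 47.0% of its exonic bases were shared with other genes. Rpsa, Fau and Gnb2l1 (Rack1), which also give rise to ribosomal proteins, fall outside the naming pattern and are described separately.

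The cytoplasmic ribosome is built from ribosomal RNA and a full set of ribosomal proteins, so the genes are needed in balanced amounts and are active in every dividing and non-dividing cell. Their messenger RNAs start with a short run of pyrimidines, the 5′ terminal oligopyrimidine (TOP) motif, through which the kinase complex mTORC1 and the RNA-binding protein Larp1 control their translation together, and Myc is a known activator of their transcription. Ribosomal protein genes have also left many intronless copies in mammalian genomes, most of them pseudogenes.

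In the model, a Cre-carrying adenovirus was injected into the peritoneal cavity of mice, and floxed alleles of Nf2 and Cdkn2a were recombined in every group, per the labels. The tumours are 4 peritoneal primary tumours labelled Pak2-null (13, 14A, 59 and 61; Pak2 f/f), 1 secondary tumour with the same alleles (14B), and 3 peritoneal primary tumours with wild-type Pak2 (19, 20 and 127). Strain, age and sex are not in the labels, and they do not state that each tumour is from its own animal, so p-values measure the spread between these samples.

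Total counts ranged from 13469851 to 20402401 per tumour. The transcript of the targeted kinase, Pak2, measured 186, 238, 165 and 131 CPM (counts relative to library size) in tumours 13, 14A, 59 and 61 and 239 CPM in tumour 14B, against 128, 90.1 and 92.7 CPM in wild-type tumours 19, 20 and 127. The tumours with the Pak2-null label were thus not the lower ones, and whole-gene counts do not show whether a floxed segment was lost, so the groups are named by their labels throughout. The summed level of 12 mesothelial markers was 14.6 to 423 CPM over tumours 13, 14A, 59 and 61 and 47.3 to 387 CPM over the wild-type tumours. The summed level of 12 skeletal muscle markers was 23.5 to 878 CPM over tumours 13, 14A, 59 and 61 and 3171 to 35045 CPM over the wild-type tumours, with 12 of 12 at a lower fitted value and none at 0. The summed level of 12 leukocyte markers was 756 to 3981 CPM over tumours 13, 14A, 59 and 61 and 431 to 958 CPM over the wild-type tumours, with 12 of 12 at a higher fitted value and none at 0. The summed level of 6 erythroid markers was 14.4 to 106 CPM over tumours 13, 14A, 59 and 61 and 177 to 2880 CPM over the wild-type tumours, highest in tumour 19, with 4 of 4 tested at a lower fitted value. The summed level of 8 adipocyte markers was 33.8 to 418 CPM over tumours 13, 14A, 59 and 61 and 183 to 1356 CPM over the wild-type tumours, with 8 of 8 at a lower fitted value. None of these markers passed the edgeR test. Summed exocrine pancreas markers reached 27133 CPM in tumour 14A and 197884 CPM in tumour 14B, and stayed at or below 60.9 CPM in the other tumours. Summed fibroblast markers measured 2581 CPM in tumour 14A and 4598 CPM in tumour 14B, and between 21003 and 27971 CPM in the other tumours. Summed B and plasma cell markers measured 2465 CPM in tumour 14A and 1154 CPM in tumour 14B, and between 15.2 and 932 CPM in the other tumours. In such bulk samples, fewer cells of a type and less RNA per cell cannot be told apart, and the part of these admixed tissues in the results below was not tested.

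As a set, the ribosomal protein genes differed little between the groups. They took 4.13%, 5.63%, 4.48% and 5.82% of all counts in tumours 13, 14A, 59 and 61 and 3.74% in tumour 14B, against 6.01%, 4.64% and 3.60% in wild-type tumours 19, 20 and 127. The highest and the lowest primary tumour were both wild-type, so the groups overlapped over the whole range. The means were 5.01% ± 0.834 (SD, n = 4) in tumours labelled Pak2-null and 4.75% ± 1.21 (SD, n = 3) in wild-type tumours, a difference of 0.265 percentage points. Leaving out one tumour at a time moved this difference between -0.309 percentage points, without wild-type tumour 127, and 0.896 percentage points, without wild-type tumour 19. Exact 95% binomial intervals on each share were about as narrow as the rounding, for example 4.12% to 4.14% in tumour 13, and cover counting error only. Genes of the small subunit supplied 38.4% ± 1.22 of the ribosomal protein counts in tumours labelled Pak2-null and 38.3% ± 1.15 in wild-type tumours (SD, n = 4 and 3).

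**Figure D1:**
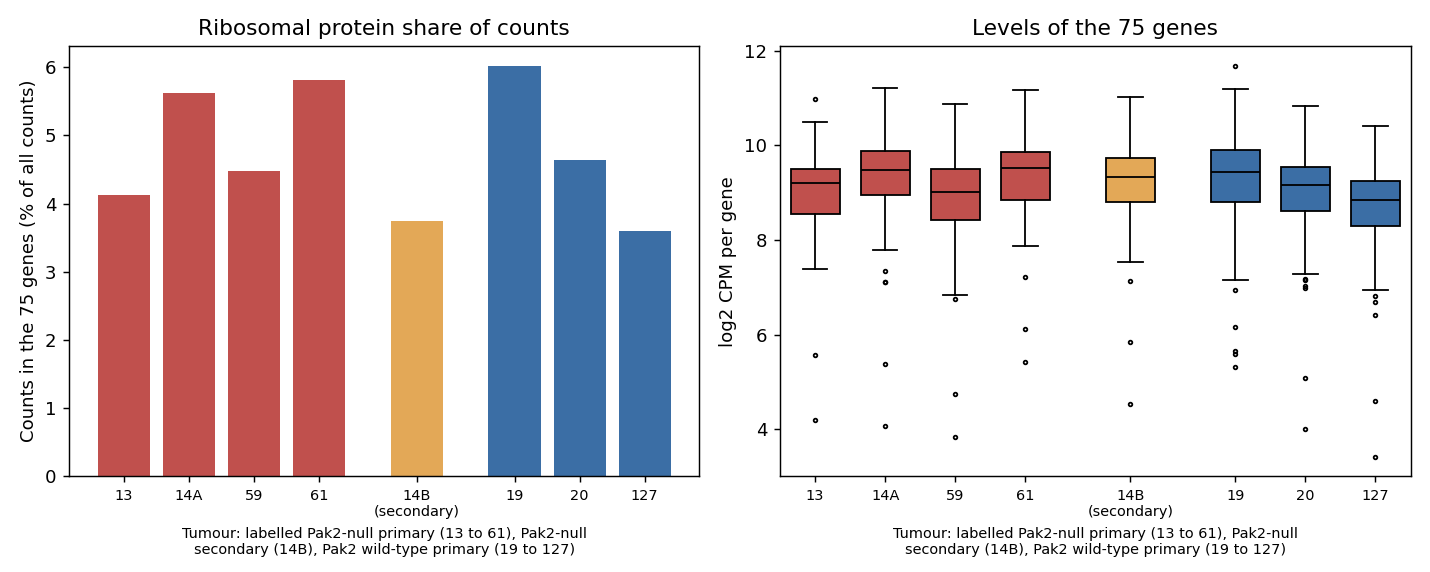
Left, share of all counts (%) taken by the 75 ribosomal protein genes, 1 bar per tumour. Right, log2 CPM of the 75 genes in each tumour (line, median; box, quartiles; whiskers, 1.5 times the box or the last gene within it; dots, genes beyond). The 4 primary tumours labelled Pak2-null lie between 4.13% and 5.82%, inside the span of 3.60% to 6.01% of the wild-type tumours.

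None of the 75 genes was called at an adjusted p of 0.05 (edgeR's quasi-likelihood test, Benjamini-Hochberg over all genes tested), where 0.0714% of the 15412 tested genes were. At an unadjusted p below 0.05, 2 of the 75 were found (Rpl30, higher, and Rps3a1, lower), where 12.9% of all tested genes were, 4.39% higher and 8.55% lower. DESeq2 and limma-voom with quality weights each called both. DESeq2 called 7.71% of the 14894 genes to which it gave an adjusted p, and limma-voom 6.16% of the 15412 tested genes. Values did not overlap between the groups for 3 of the 75, Rpl30 and Rpl23 higher and Rps3a1 lower, against 14.0% of all tested genes, 5.07% higher and 8.93% lower.

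The fitted log2 fold changes, labelled Pak2-null minus wild-type, lay close to each other. Their median was 0.18, with quartiles of 0.06 and 0.32, beside a median of 0.06 over all tested genes. A value above 0 was fitted for 66 of 75 genes, where 54.5% of all tested genes had one. The small subunit had a median of 0.26 with 28 of 30 above 0, and the large subunit had a median of 0.13 with 38 of 45 above 0. The genes varied together between tumours, so these 66 values are not independent of each other. Without wild-type tumour 127, the tumour with the lowest share, 39 of 75 were above 0. The members' median was then 0.04, beside 0.05 over all tested genes in that fit. Without wild-type tumour 19, 73 of 75 were above 0 and the median was 0.32, beside 0.09 over all tested genes.

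**Figure D2:**
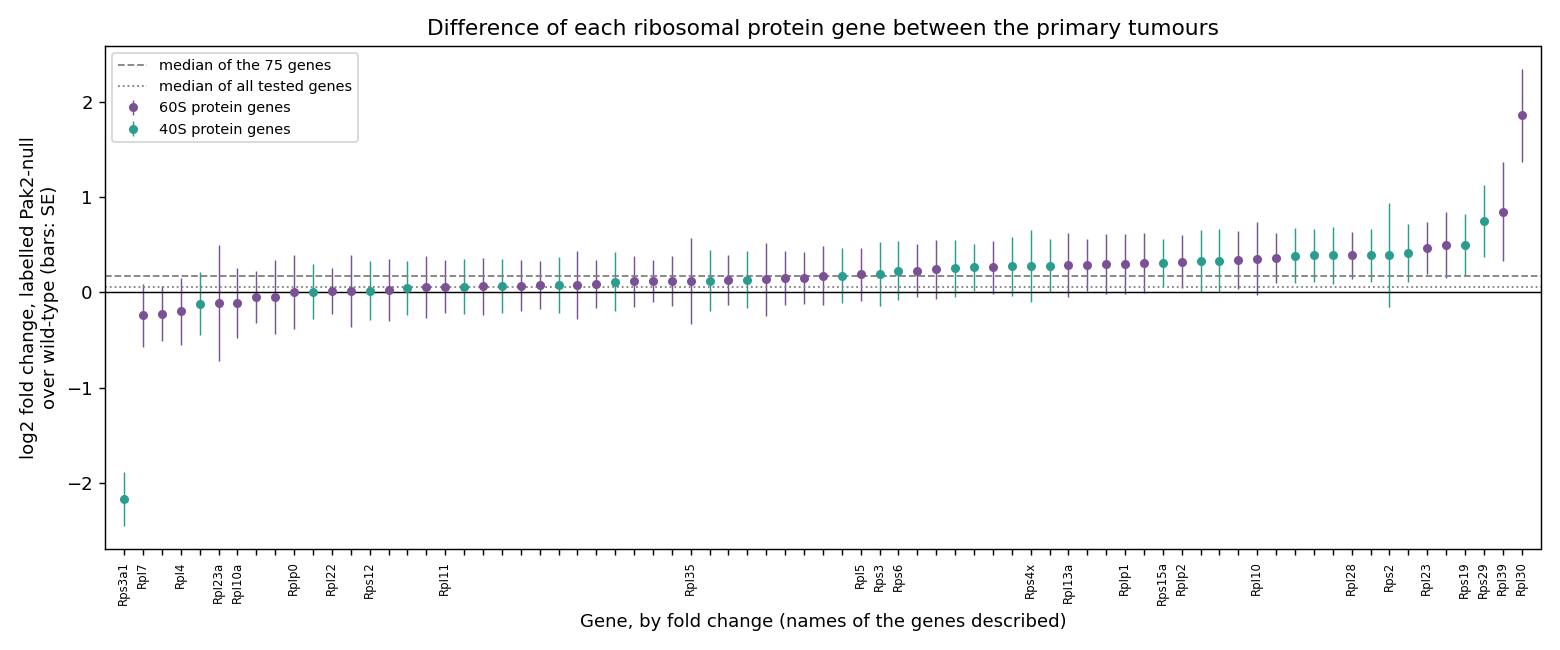
Log2 fold change of each of the 75 genes (labelled Pak2-null over wild-type primary tumours, n = 4 and 3; bars, SE), ordered by value and coloured by subunit, with names for the genes described in the text. Rps3a1 at -2.17 and Rpl30 at 1.86 stand at the ends, and the other 73 genes lie between -0.24 and 0.85.

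Genes of the family varied together. The mean log2 CPM over the 75 genes had an SD of 0.26 over the 7 primary tumours and a range of 0.70. A single gene had a median SD of 0.32, and of 0.17 once each tumour's family mean was subtracted. Over all tested genes the median SD of log2 CPM was 0.59. That set includes genes with fewer counts and more counting error, and no set matched for level was compared. Only 13 of the 75 had an SD above 0.3 after subtraction, led by Rps3a1 (1.27), Rpl30 (1.20), Rpl39 (0.92), Rpl23a (0.66) and Rps2 (0.60).

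**Figure D3:**
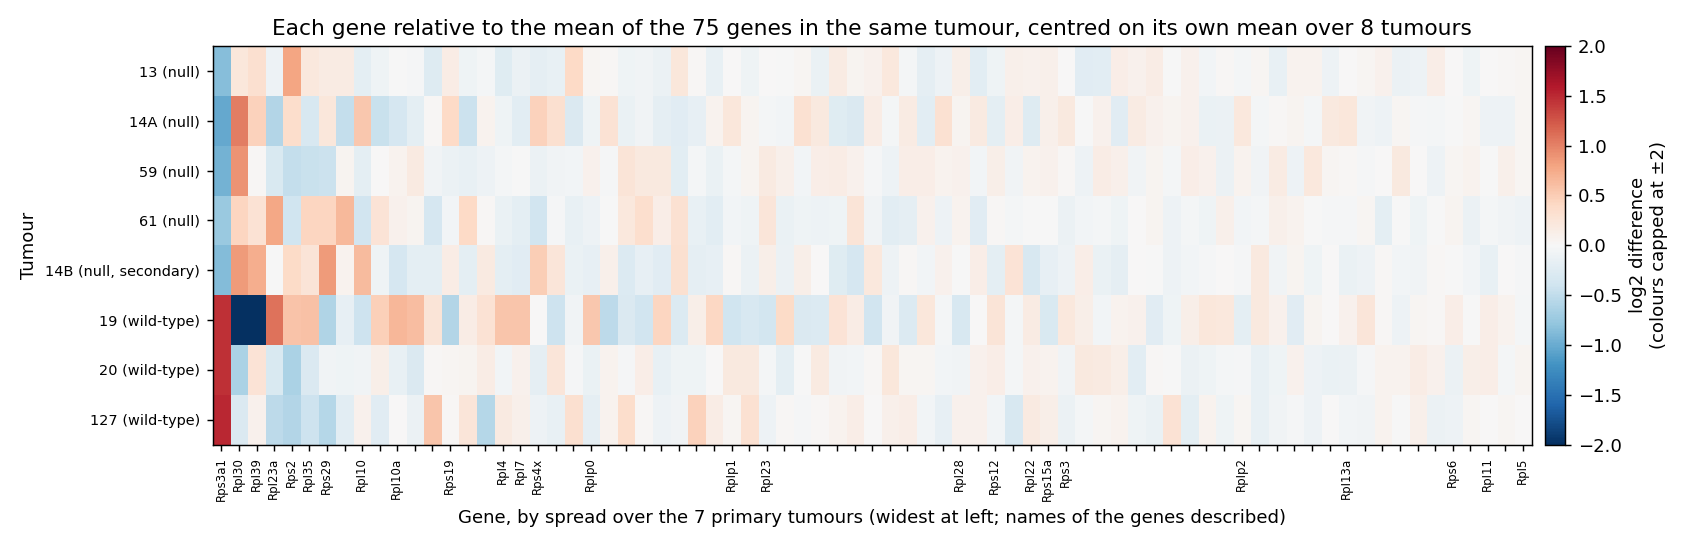
Level of each gene (columns) in each tumour (rows) relative to the mean of the 75 genes in the same tumour, centred on its own mean over the 8 tumours (log2; red higher, blue lower). Most columns are near white, and colour gathers in the genes at the left, led by Rps3a1 (SD 1.27) and Rpl30 (SD 1.20). Names are given for the genes described in the text.

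The exceptions were read beside their copies. Alignment of annotated transcripts found 316 other genes of the table that matched a member at 95% identity or more over at least 80% of the copy's length, for 67 of the 75 genes, and 282 of the 316 were typed as pseudogenes. Together they held between 2.73% and 3.81% of the counts of members and copies in each tumour. For Rps3a1 and Rpl30 the copies held more, 34.1% and 20.9% over all tumours, but so did those of Rps2 (43.2%) and Rpl23a (26.3%). The copies of Rps3a1 were higher in every tumour labelled Pak2-null, where the parent was lower. Those of Rpl30 were lower in most of them, where the parent was higher, but overlapped. Its copy Gm12191 measured 89.3 CPM in tumour 61 and 61.2 CPM in wild-type tumour 19. Coding windows of the Rps3a family that carry sequence differences are shown, from the GENCODE M21 transcripts of GRCm38, 5′ to 3′ on the coding strand, with capitals at the bases where its members differ.
Rps3a1: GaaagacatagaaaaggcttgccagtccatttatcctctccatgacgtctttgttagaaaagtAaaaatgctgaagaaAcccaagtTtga
Rps3a2: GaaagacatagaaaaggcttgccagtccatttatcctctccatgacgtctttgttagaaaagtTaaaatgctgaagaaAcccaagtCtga
Rps3a3: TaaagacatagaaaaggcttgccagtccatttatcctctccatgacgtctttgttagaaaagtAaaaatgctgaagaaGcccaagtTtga

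Rps3a1 (chromosome 3, 86137940 to 86142702, minus strand, GRCm38) encodes eS1, a protein of the small subunit near the messenger RNA exit channel. It measured 193, 220.5, 164 and 267 CPM in tumours 13, 14A, 59 and 61 and 226 CPM in tumour 14B, against 1122, 980.4 and 779.9 CPM in wild-type tumours 19, 20 and 127. The groups were far apart, with a log2 fold change of -2.17 (SE 0.28, edgeR's quasi-likelihood test, adjusted p = 0.059).

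Its copy Rps3a2 (chromosome 14, 88123017 to 88123808, minus strand) is typed as a pseudogene and differs from the 795 coding bases of Rps3a1 by 4 substitutions over 792 aligned bases, T216C, T534C, A645T and T668C, counted from 1 at the start codon with the base of Rps3a1 first. It measured 89.8, 162, 101 and 96.0 CPM in tumours 13, 14A, 59 and 61 and 104 CPM in tumour 14B, against 3.38, 5.03 and 3.53 CPM in wild-type tumours 19, 20 and 127. It rose, with a log2 fold change of 4.84 (SE 0.34, edgeR's quasi-likelihood test, adjusted p = 0.0224).

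Rps3a3 (chromosome 13, 108670603 to 108671397, plus strand), also typed as a pseudogene, differs by 9 substitutions over 795 bases, among them T216C, T534C, G582T and A660G. It measured 278, 374, 288 and 375 CPM in tumours 13, 14A, 59 and 61 and 333 CPM in tumour 14B, against 3.38, 6.46 and 1.60 CPM in wild-type tumours 19, 20 and 127. It rose, with a log2 fold change of 6.45 (SE 0.58, edgeR's quasi-likelihood test, adjusted p = 0.031). Neither call held in every reduced set of tumours: without tumour 13, 59, 61, 20 or 127 the adjusted p-values lay between 0.0757 and 0.167 for both copies.

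Rps3a1 therefore supplied 34.4%, 29.1%, 29.6% and 36.2% of the counts of the 3 genes in tumours 13, 14A, 59 and 61 and 34.1% in tumour 14B, against 99.4%, 98.8% and 99.3% in wild-type tumours 19, 20 and 127. The share ran from 29.1% to 36.2% over tumours labelled Pak2-null and from 98.8% to 99.4% over wild-type tumours. Every tumour labelled Pak2-null, the secondary tumour included, lay on one side. The 3 genes summed to 560.5, 757, 553 and 738 CPM in tumours 13, 14A, 59 and 61 and 663 CPM in tumour 14B, against 1128, 992 and 785 CPM in wild-type tumours. These sums did not overlap between the groups, though the gap from 757 CPM in tumour 14A to 785 CPM in wild-type tumour 127 was narrow. The sum gave a log2 fold change of -0.55 (SE 0.28, edgeR's quasi-likelihood test, adjusted p = 0.468). How the counting assigned reads that match more than one of these genes is not given in the sources used here, so transcription of the copies and reads of a parent variant placed on a copy cannot be told apart.

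Rpl30 (chromosome 15, 34440505 to 34443640, minus strand) encodes eL30, a protein of the large subunit. It measured 225, 501, 323 and 329.9 CPM in tumours 13, 14A, 59 and 61 and 409.7 CPM in tumour 14B, against 39.7, 126 and 124 CPM in wild-type tumours 19, 20 and 127. The groups did not overlap, but the log2 fold change of 1.86 (SE 0.49) missed the threshold in edgeR's quasi-likelihood test (adjusted p = 0.154).

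Its copy Gm12191 (chromosome 11, 49678710 to 49679057, minus strand) differs from the 348 coding bases by 1 substitution. It held 913, 114, 57 and 1546 counts in tumours 13, 14A, 59 and 61 and 100 counts in tumour 14B, against 1319, 2651 and 1826 counts in wild-type tumours 19, 20 and 127. Rpl30 made up 79.9%, 98.8%, 98.9% and 78.7% of the counts of the pair in tumours 13, 14A, 59 and 61 and 97.5% in tumour 14B, against 39.4%, 43.4% and 51.4% in wild-type tumours. The tumours labelled Pak2-null were themselves split, with 14A, 14B and 59 nearly free of copy counts and 13 and 61 at an intermediate share.

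The pair summed to 282, 507, 326 and 419 CPM in tumours 13, 14A, 59 and 61 and 420.0 CPM in tumour 14B, against 101, 291 and 241 CPM in wild-type tumours 19, 20 and 127, so that the groups overlapped. With all aligned copies added to each parent, Rpl30 had a log2 fold change of 0.88 (SE 0.42, edgeR's quasi-likelihood test, adjusted p = 0.434). In that fit none of the 75 parents passed or reached an unadjusted p below 0.05, the median was 0.15, and the values ran from -0.55 to 0.88.

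**Figure D4:**
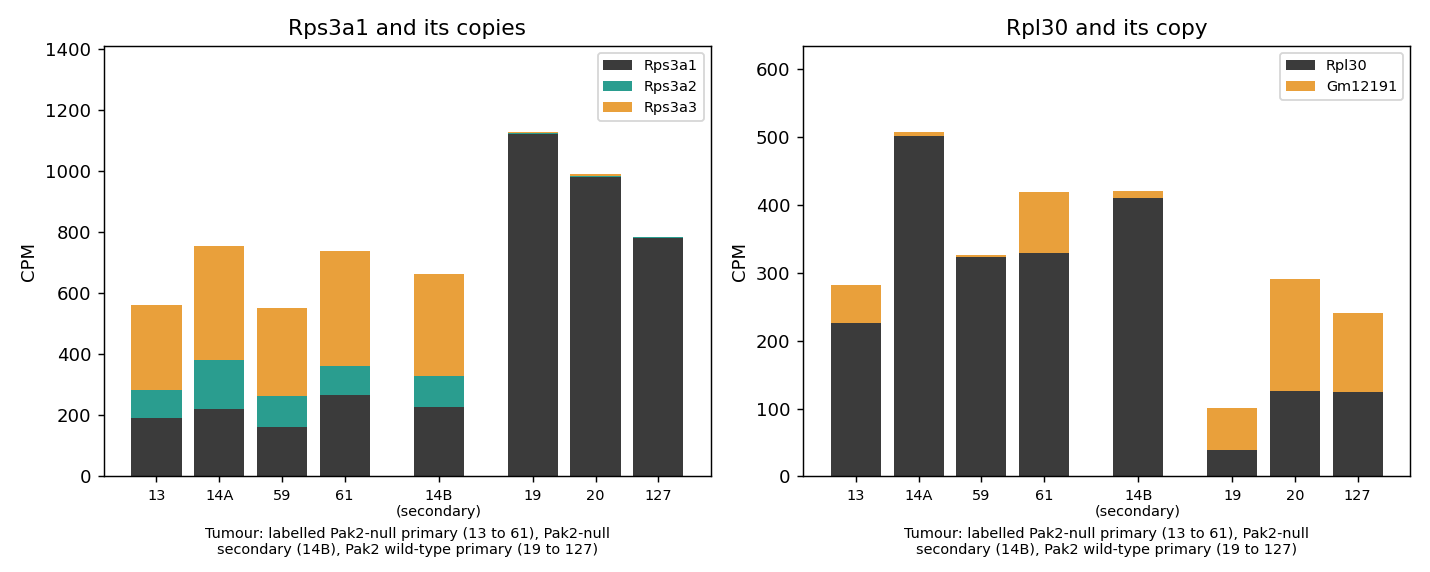
CPM of Rps3a1 with its copies Rps3a2 and Rps3a3 (left) and of Rpl30 with its copy Gm12191 (right), stacked per tumour. Rps3a1 fills 29.1% to 36.2% of its column in the 5 tumours labelled Pak2-null and 98.8% to 99.4% in the 3 wild-type tumours.

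Other copies also had many counts in some tumours and few in others. Rps7, a small subunit protein gene, has a copy on chromosome X, Gm6472, with 3 substitutions over 585 coding bases, of which G48A and G123T are in the window shown.
Rps7: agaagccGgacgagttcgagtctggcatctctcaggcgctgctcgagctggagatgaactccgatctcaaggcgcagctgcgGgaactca
Gm6472: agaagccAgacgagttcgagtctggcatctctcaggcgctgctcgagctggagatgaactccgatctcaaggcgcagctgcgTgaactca

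Gm6472 held 58, 126, 76 and 121 counts in tumours 13, 14A, 59 and 61 and 63 counts in tumour 14B, against 1854, 952 and 84 counts in wild-type tumours 19, 20 and 127. Tumours 19 and 20 alone were high. They also had the lowest levels of the Y-linked gene Ddx3y, 1.62 and 1.24 CPM, where tumours 13, 14A, 59, 61, 14B and wild-type tumour 127 had between 84.2 and 116 CPM, and the part of sex in the copy's counts was not tested. Gm10036, a copy of Rpl11 that is typed protein-coding, held 35, 50, 18 and 48 counts in tumours 13, 14A, 59 and 61 and 15 counts in tumour 14B, against 516, 337 and 265 counts in wild-type tumours 19, 20 and 127. Its groups did not overlap, at a log2 fold change of -3.23 (SE 0.39, edgeR's quasi-likelihood test, adjusted p = 0.054), yet Rpl11 made up at least 96.0% of the pair in every tumour. Gm9396, a copy of Rpl12, held 363 counts in tumour 14A and 123 in tumour 14B, and between 11 and 37 in each of the other 6. The tumours 14A and 14B, which share a number in their labels, were thus the only ones of the 8 with more than 100 counts of it.

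Rpl10a-ps2, on chromosome 13, was high in a single tumour. It held 4, 7, 1 and 4877 counts in tumours 13, 14A, 59 and 61 and 3 counts in tumour 14B, against 0 counts in each of wild-type tumours 19, 20 and 127, where a count of 0 allows up to 3 counts. In tumour 61 it reached 282 CPM, and Rpl10a made up 75.8% of the pair there and over 99.9% in each of the other tumours. This copy is further from its parent than the ones above, with 93.3% identity and 43 substitutions over 642 aligned bases, which cluster in the window shown.
Rpl10a: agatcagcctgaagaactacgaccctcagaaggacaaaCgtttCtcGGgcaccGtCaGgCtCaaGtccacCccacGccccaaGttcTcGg
Rpl10a-ps2: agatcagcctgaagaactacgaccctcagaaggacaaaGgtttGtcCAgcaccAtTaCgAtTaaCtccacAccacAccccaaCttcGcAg

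Of the 106 aligned copies that could be tested, Rps3a2 and Rps3a3 passed, both higher, and none passed lower. Of all 15412 tested genes, 0.0714% passed, 8 lower and 3 higher, with Rps3a2 and Rps3a3 among the higher ones. At an unadjusted p below 0.05, 4 copies were higher and 3 lower, and 6 higher and 5 lower did not overlap between the groups. Of all tested genes, 4.39% were higher and 8.55% lower at that p, and 5.07% were higher and 8.93% lower without overlap. By the unadjusted p and by overlap, the counts of the copies thus lay near or below those shares.

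Rps2, a small subunit protein at the messenger RNA entry, has the largest share of copy counts, 43.2% of the counts of the gene and its copies. It measured 949, 899, 356 and 531 CPM in tumours 13, 14A, 59 and 61 and 844 CPM in tumour 14B, against 942, 358 and 286 CPM in wild-type tumours 19, 20 and 127. Its copy Rps2-ps10 held 5133, 5352, 7890 and 10577 counts in tumours 13, 14A, 59 and 61 and 2111 counts in tumour 14B, against 17066, 9260 and 7330 counts in wild-type tumours. Tumours of both groups were high and low in Rps2, and the split with its copy also overlapped between the groups.

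Among large subunit genes at the higher end, Rpl23 encodes uL14, a protein of the face that meets the small subunit. It measured 619, 762, 626 and 922 CPM in tumours 13, 14A, 59 and 61 and 782 CPM in tumour 14B, against 552, 608 and 452 CPM in wild-type tumours 19, 20 and 127. The groups did not overlap, but the gap from 608 to 619 CPM was narrow and the log2 fold change of 0.47 (SE 0.28, edgeR's quasi-likelihood test, adjusted p = 0.538) missed the threshold. No aligned copy of Rpl23 was found.

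Rpl39 is X-linked and encodes eL39, a small protein that lines the exit tunnel. It measured 243, 345, 178 and 304 CPM in tumours 13, 14A, 59 and 61 and 381 CPM in tumour 14B, against 50.5, 240.0 and 162 CPM in wild-type tumours 19, 20 and 127. Its log2 fold change of 0.85 (SE 0.52, edgeR's quasi-likelihood test, adjusted p = 0.55) leaned on tumour 19, and it was 0.41 without that tumour.

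Rps29, the gene of a zinc-binding protein of the small subunit, measured 180.3, 243, 107 and 276 CPM in tumours 13, 14A, 59 and 61 and 344 CPM in tumour 14B, against 123, 157 and 85.2 CPM in wild-type tumours 19, 20 and 127. The groups overlapped, with tumour 59 below tumours 19 and 20, at a log2 fold change of 0.75 (SE 0.38). Rps19, a small subunit protein whose human gene is mutated in Diamond-Blackfan anaemia, averaged 569 ± 167 CPM in tumours labelled Pak2-null and 408 ± 69.3 CPM in wild-type tumours (SD, n = 4 and 3), and its groups overlapped. Rpl28, of the large subunit, averaged 523 ± 83.4 CPM in tumours labelled Pak2-null and 405 ± 30.7 CPM in wild-type tumours, with a log2 fold change of 0.39 (SE 0.25).

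At the lower end, after Rps3a1, no fold change was as large as its SE. Rpl7 had a log2 fold change of -0.24 (SE 0.33), Rpl4 of -0.20 (SE 0.36) and Rpl10a of -0.11 (SE 0.37). These 3 genes were highest in wild-type tumour 19, for example Rpl4 with 1149, 1654, 1197 and 1587 CPM in tumours 13, 14A, 59 and 61 and 1399 CPM in tumour 14B, against 2332, 1337 and 1214 CPM in wild-type tumours 19, 20 and 127. Without tumour 19 all 3 values turned positive, at 0.07 for Rpl7, 0.13 for Rpl4 and 0.34 for Rpl10a.

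The stalk proteins Rplp0, Rplp1 and Rplp2 form the arm of the large subunit that recruits elongation factors. Rplp0, which anchors the stalk, had 2015, 2374, 1872 and 2322 CPM in tumours 13, 14A, 59 and 61 and 2073 CPM in tumour 14B, against 3308, 1825 and 1364 CPM in wild-type tumours 19, 20 and 127. The wild-type tumours spanned a wider range than the others, and the log2 fold change was 0.01 (SE 0.39), with a sign that changed with the scaling. Rplp1 averaged 1181 ± 277 CPM in tumours labelled Pak2-null and 973 ± 192 CPM in wild-type tumours, and Rplp2 averaged 552 ± 120.1 CPM in tumours labelled Pak2-null and 448 ± 55.4 CPM in wild-type tumours (SD, n = 4 and 3). The groups overlapped for both genes.

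Rpl5 and Rpl11 carry the 5S ribosomal RNA into the large subunit and, when assembly fails, bind Mdm2 and so stabilise p53. Rpl5 averaged 792 ± 121 CPM in tumours labelled Pak2-null and 703 ± 125 CPM in wild-type tumours, and Rpl11 averaged 564 ± 83.0 CPM in tumours labelled Pak2-null and 549 ± 125 CPM in wild-type tumours (SD, n = 4 and 3). Rps6, the small subunit protein phosphorylated by S6 kinase, averaged 783 ± 137 CPM in tumours labelled Pak2-null and 678 ± 187 CPM in wild-type tumours. Rpl22 averaged 283 ± 35.4 CPM in tumours labelled Pak2-null and 284 ± 53.5 CPM in wild-type tumours. None of these 4 differed beyond the spread between tumours, with log2 fold changes from 0.01 to 0.23 and SEs from 0.24 to 0.31.

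Of the 4 X-linked genes, Rpl10 and Rps4x stood out in 1 primary tumour. Rpl10, a late-joining protein of the large subunit, measured 959, 2040.2, 862 and 1069 CPM in tumours 13, 14A, 59 and 61 and 2007 CPM in tumour 14B, against 956, 1059 and 919 CPM in wild-type tumours 19, 20 and 127. Rps4x, a small subunit protein, measured 907, 1817, 856 and 1004 CPM in tumours 13, 14A, 59 and 61 and 1713 CPM in tumour 14B, against 1197, 928 and 759 CPM in wild-type tumours. Tumours 14A and 14B were the high ones for both genes, and without tumour 14A the log2 fold changes were -0.00232 for Rpl10 and -0.04 for Rps4x.

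Other X-linked genes were also higher in these tumours. The median log2 difference of 506 other X-linked genes between tumour 14A and the mean of tumours 13, 59 and 61 was 0.30, beside 0.00 over genes of other chromosomes, and for tumour 14B it was 0.37 beside -0.03. The X chromosome was not alone in this: the median of 598 other genes of chromosome 15 was -0.26 beside 0.02 for tumour 14A and -0.31 beside -0.01 for tumour 14B. These measures, like the choice of chromosomes, were taken after the values of Rpl10 and Rps4x were seen. Xist, the RNA that coats the inactive X, measured 0.0619, 0.154, 1.11 and 1.33 CPM in tumours 13, 14A, 59 and 61 and 0 in tumour 14B, against 151, 459 and 26.6 CPM in wild-type tumours 19, 20 and 127, and its part in the levels of X-linked genes was not tested.

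**Figure D5:**
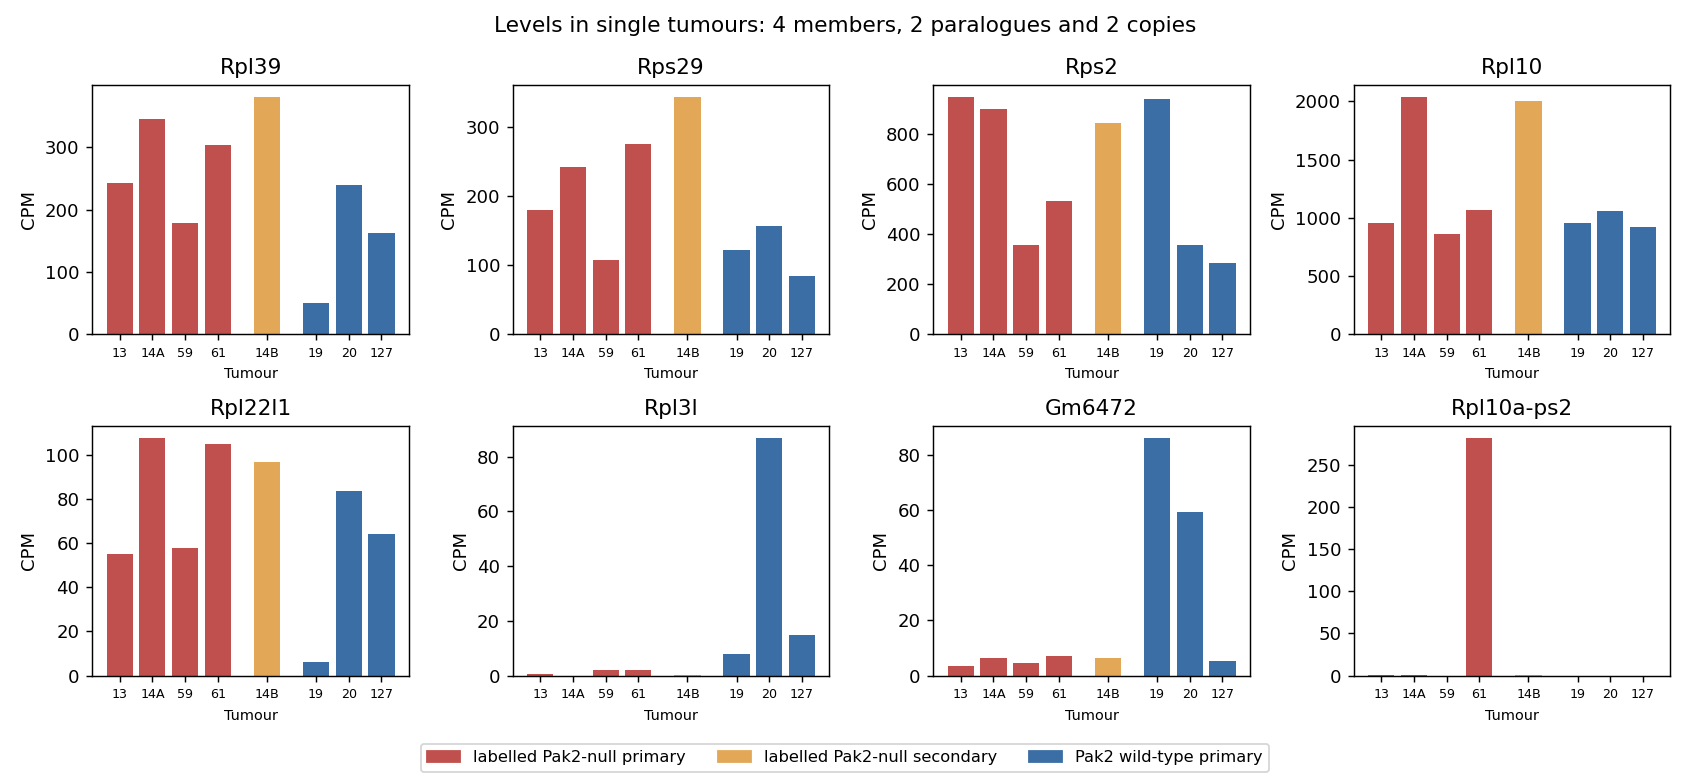
CPM in each tumour of 4 members (Rpl39, Rps29, Rps2, Rpl10), 2 paralogues (Rpl22l1, Rpl3l) and 2 copies (Gm6472, Rpl10a-ps2), each on its own axis from 0. Rpl10 is high in tumours 14A (2040.2 CPM) and 14B (2007 CPM) alone, Gm6472 is high in wild-type tumours 19 and 20, and Rpl10a-ps2 reaches 282 CPM in tumour 61 alone.

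Levels per kilobase of the deposited gene length, averaged over the 7 primary tumours, were highest for Rplp1 (2206 CPM per kb), Rps12 (1943 CPM per kb) and Rplp0 (1587 CPM per kb). They were lowest for Rpl23a (40.6 CPM per kb), Rpl35 (47.6 CPM per kb) and Rps15a (75.6 CPM per kb). For Rpl23a and Rpl35, 62.3% and 66.2% of exonic bases are shared with other annotated genes, and in the absence of a stated strand setting the reads there cannot be told apart. Rpl23a measured 18.3, 16.8, 14.2 and 42.7 CPM in tumours 13, 14A, 59 and 61 and 23.1 CPM in tumour 14B, against 48.4, 16.1 and 10.7 CPM in wild-type tumours 19, 20 and 127. One tumour of each group, 61 and 19, was high. Rpl35 showed the same order, with 47.2, 41.7, 27.0 and 69.7 CPM in tumours 13, 14A, 59 and 61 and 57.4 CPM in tumour 14B, against 71.3, 34.0 and 24.1 CPM in wild-type tumours. The annotation release behind the deposited lengths is not given in the sources used here, and for Rps15a the deposited length of 5130 bases, where that of Rplp1 is 495 bases, lowers the level per kilobase.

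Letters like those of the TOP motif were found near the annotated start of many of these genes. The search did not ask whether a match lay at the start itself. RefSeq promoter windows of GRCm38.p6, from 250 bases before to 50 bases after an annotated start, were matched by symbol for 55 of the 75 genes, with 65 windows, out of 32851 windows of all genes. Within 40 bases of the start on the gene's strand, an unbroken run of at least 8 pyrimidines was found in 73.8% of the members' windows and 29.3% of all windows. The letters CTTTC were found there in 44.6% of the members' windows and 10.3% of all windows. Over the whole window and on both strands, CCGGAAG, the core letters bound by ETS factors such as GABP, was found in 36.9% of members' windows and 8.86% of all windows, CACGTG, the Myc E-box, in 12.3% and 7.15%, and TATAAA in 9.23% and 13.6%. The CTTTC match can lie inside a pyrimidine run, so these shares overlap. A match describes the letters and is not evidence of binding.

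Starts with long runs, of Rpl7a and Rpl27a, are shown as examples beside those of Rpl39, Rpl23 and Rps3a1, whose values are given above. Each line holds 30 bases centred on the annotated start, 5′ to 3′ on the gene's strand, with the longest pyrimidine run in capitals. The windows are chr2:26910792-26910821 (plus strand) for Rpl7a, chr7:109519180-109519209 (plus strand) for Rpl27a, chrX:37085208-37085237 (minus strand) for Rpl39, chr11:97782425-97782454 (minus strand) for Rpl23 and chr3:86142654-86142683 (minus strand) for Rps3a1. The runs are 21, 19, 8, 3 and 2 bases long in that order.
Rpl7a: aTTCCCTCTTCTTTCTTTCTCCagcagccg
Rpl27a: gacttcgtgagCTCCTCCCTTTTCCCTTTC
Rpl39: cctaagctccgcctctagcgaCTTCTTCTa
Rpl23: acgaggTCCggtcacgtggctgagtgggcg
Rps3a1: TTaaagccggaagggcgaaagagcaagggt

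Fau, Gnb2l1 and Rpsa, outside the naming pattern, also missed the threshold in edgeR's quasi-likelihood test. Fau, a fusion of a ubiquitin-like protein and eS30, had a log2 fold change of 0.28 (SE 0.32), Gnb2l1, whose product Rack1 is a signalling scaffold on the small subunit, one of 0.22 (SE 0.36), and Rpsa one of -0.32 (SE 0.45).

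Among paralogues, which replace a standard protein in some tissues, none of the 8 tested passed edgeR's quasi-likelihood test. Rpl3l, the striated muscle form of Rpl3, measured 0.433, 0, 2.16 and 1.96 CPM in tumours 13, 14A, 59 and 61 and 0.104 CPM in tumour 14B, against 8.02, 86.8 and 14.8 CPM in wild-type tumours 19, 20 and 127. The groups did not overlap, at a log2 fold change of -4.98 (SE 1.39, edgeR's quasi-likelihood test, adjusted p = 0.175), in the same tumours in which the skeletal muscle markers above differed, and the part of muscle tissue in its level was not tested. It passed in DESeq2 (adjusted p = 0.00307), and without wild-type tumour 20 the edgeR value was -3.30. Rpl22l1, the paralogue of Rpl22, measured 55.1, 108, 57.7 and 105 CPM in tumours 13, 14A, 59 and 61 and 96.5 CPM in tumour 14B, against 5.98, 83.4 and 64.3 CPM in wild-type tumours. Tumour 19 alone was low, and the groups overlapped. Rpl10l, the testis form of Rpl10, had 0 counts in all 8 tumours. Rpl7l1, Rpl36al, Rps27l, Rps4l and Rpl39l overlapped between the groups, and the last was the rarest of them, at 121 counts in all.

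Neighbouring steps of ribosome production were described by fixed gene lists. In the same edgeR fit, none of the tested genes of any list passed, where 0.0714% of all tested genes did. Translation factors with TOP messenger RNAs had a median log2 fold change of 0.06 with 16 of 20 above 0, and 40 ribosome assembly factors, of which 39 were tested, had a median of 0.12 with 29 of 39 above 0. RNA polymerase I subunits and factors, which make ribosomal RNA, had a median of 0.09 with 11 of 15 above 0. The lists of mTORC1 and TOP regulators and of mitochondrial ribosomal proteins lay on the other side, with medians of -0.18 (7 of 18 above 0) and -0.09 (25 of 76 above 0). Myc family genes had a median of 0.09 with 6 of 11 above 0, the list of the 5S particle and p53 had a median of 0.27 with 5 of 8 above 0, and 8 tested hosts of small nucleolar RNAs had a median of 0.18 with 6 of 8 above 0.

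The genes of these lists with the lowest p-values missed the threshold in edgeR's quasi-likelihood test. Some of them passed in DESeq2, which called 7.71% of the 14894 genes to which it gave an adjusted p. Those that passed there were Tsc1 (adjusted p = 0.0453), Cdkn1a (adjusted p = 0.0215), Mycl (adjusted p = 0.000774), Mrps31 (adjusted p = 0.0180) and Nap1l1 (adjusted p = 0.0443), and Cdkn1a and Mrps31 also passed in limma-voom with quality weights. Npm1, a chaperone of ribosome assembly, measured 448, 409, 559 and 823 CPM in tumours 13, 14A, 59 and 61 and 362 CPM in tumour 14B, against 275, 357 and 288 CPM in wild-type tumours 19, 20 and 127, without overlap (log2 fold change 0.89, SE 0.33, edgeR's quasi-likelihood test, adjusted p = 0.308). Tsc1, an inhibitor of mTORC1, measured 30.5, 37.6, 33.1 and 30.4 CPM in tumours 13, 14A, 59 and 61 and 29.7 CPM in tumour 14B, against 48.3, 44.7 and 46.1 CPM in wild-type tumours, also without overlap (log2 fold change -0.47, SE 0.18, edgeR's quasi-likelihood test, adjusted p = 0.323). Cdkn1a, the p53 target p21, measured 101, 122, 133 and 144 CPM in tumours 13, 14A, 59 and 61 and 137 CPM in tumour 14B, against 171, 309 and 719 CPM in wild-type tumours, with a log2 fold change of -1.66 (SE 0.47, edgeR's quasi-likelihood test, adjusted p = 0.18). Its value was -0.94 without wild-type tumour 127, the highest of them.

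Of the other genes, Rps6kb2, an S6 kinase, had a log2 fold change of -0.69 (SE 0.25), Rrp12, an export factor of ribosomal subunits, one of -0.86 (SE 0.34), and Eif6, which keeps the subunits apart, one of 0.40 (SE 0.19). Without wild-type tumour 127 the value of Rrp12 was -0.48. Mycl had a log2 fold change of -2.67 (SE 0.59, edgeR's quasi-likelihood test, adjusted p = 0.123) and Mnt, a repressor that opposes Myc, one of 0.67 (SE 0.24). Myc itself measured 92.4, 43.1, 95.2 and 104 CPM in tumours 13, 14A, 59 and 61 and 36.9 CPM in tumour 14B, against 78.3, 31.1 and 30.2 CPM in wild-type tumours, so both groups held high and low tumours. Among mitochondrial ribosomal genes, Mrps31 had a value of -0.75 (SE 0.25) and Mrpl42 one of -0.74 (SE 0.27), which was -0.39 without wild-type tumour 20. Nap1l1, a histone chaperone with a TOP messenger RNA, measured 320, 365, 296 and 320 CPM in tumours 13, 14A, 59 and 61 and 289 CPM in tumour 14B, against 180, 258 and 210 CPM in wild-type tumours 19, 20 and 127. Taf1d, a factor of RNA polymerase I, measured 23.4, 20.4, 24.3 and 32.2 CPM in tumours 13, 14A, 59 and 61 and 15 CPM in tumour 14B, against 5.19, 17.0 and 20.1 CPM in wild-type tumours. Neither gene overlapped between the primary groups and neither passed edgeR's quasi-likelihood test.

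The secondary tumour 14B was set beside the primary tumour 14A by value, with 1 tumour each and no replicate. The median log2 difference of the 75 genes, 14B minus 14A, was -0.17, beside 0.01 over all tested genes, and 58 of 75 were lower in 14B, where 49.4% of all tested genes were. Differences ran from -0.48 for Rpl13a to 0.50 for Rps29, and 1 of 75 differed by more than 0.5 in either direction, against 32.6% of all tested genes. Tested genes with fewer counts carry more counting error, and no set matched for level was compared. Rps29, Rpl23a (0.46) and Rpl35 (0.46) were relatively highest in 14B, and Rpl13a, Rps3 (-0.43) and Rps15a (-0.38) relatively lowest. Scaling by library size alone gave a median of -0.36, and setting each gene against the family's summed counts gave 0.01. The summed pancreatic markers stood at 197884 CPM in 14B and 27133 CPM in 14A, and their part in the difference was not tested.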

How the data were processed

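RNA from 8 tumours was sequenced as mRNA-enriched, fragmented and PCR-amplified libraries, per the labels' protocols. The authors deposited unnormalised read counts per gene, 1 column per tumour, with gene lengths. STAR and HTSeq and the builds GRCm38 and mm10 are named, per the submitters' processing notes. Not given in the sources used here are their versions, the annotation release, the strand setting and any filter.

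Counts were fitted with edgeR 4.0.16 (R 4.3.3), with TMM scaling and filterByExpr (minimum count 10, minimum total count 15), on the 7 primary tumours without covariates, since no label gives a batch, leaving 15412 genes. The quasi-likelihood test was adjusted by Benjamini-Hochberg over all of them at 0.05. Standard errors (SE) were derived from each fold change and its F statistic. CPM used TMM factors over all 8 tumours, and log2 CPM a prior count of 2. A count of 0 allows up to 3 counts, 0.139 to 0.193 CPM in primary tumours and 0.311 CPM in tumour 14B. DESeq2 1.42.0 and limma 3.58.1 were alternatives. The fit was tested on simulated data, where it recovered 34 of 100 genes changed by a log2 fold of 2 and 97 of 100 changed by 4, with 0 false calls among 15144 genes. Each simulated gene had the same underlying level in all tumours, apart from the change, and the spread typical of its level. Only genes above a minimum level were changed. Admixed tissues and outlying tumours were not simulated, so these rates need not hold for the real tumours.

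Copies were found with BLAST 2.17.0 between GENCODE M21 transcripts. The named genes are the Rps3a family, the members with the lowest p-values in each direction, the highest and lowest per kilobase, the most variable and the most different in 14B, those with a known extra role, the paralogues, and the 2 genes with the lowest p-values of each companion list, except some genes and sequences that are not reported here. The other copies, Rps2, Xist, Ddx3y and Myc were chosen after their values were seen. Members, lists and comparisons were chosen with earlier results of these data known. Tests used all 8 count columns except as stated, and 0 columns belonged to other samples.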

Additional observations from a re-analysis of the deposited data

Results flagged for a closer look

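For 6 of 66 measures examined (genes and the 2 shares of counts), 1 of the 4 primary tumours labelled Pak2-null lay far from the other 3. The measure was Dixon's gap ratio at the 95% critical value for 4 samples, which chance passes in about 1 of 20. Some genes were chosen for their spread, such as Rpl23a, or after their values were seen, such as Gm9396 and Rpl10a-ps2. The 6 of 66 can therefore not be set against that rate. Tumour 14A was the one apart for Rps4x, Rps3a2, Twistnb and Gm9396. Rps4x measured 1817 CPM there and 856 to 1004 CPM in the other 3, Rps3a2 measured 162 CPM and 89.8 to 101 CPM in the other 3, Twistnb, an RNA polymerase I subunit, measured 32.5 CPM and 18.9 to 20.3 CPM in the other 3, and Gm9396 measured 18.7 CPM and 0.987 to 1.21 CPM in the other 3. In tumour 61, Rpl10a-ps2 measured 282 CPM and 0.0617 to 0.360 CPM in the other 3, and Rpl23a measured 42.7 CPM and 14.2 to 18.3 CPM in the other 3.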

How the results depend on the processing

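The summed Rps3a family kept its direction and did not pass in any of 18 alternatives (log2 fold change -0.72 to -0.44, adjusted p 0.113 to 0.702). The members' median was above 0 in 20 alternatives (0.02 to 0.32). Its lowest value came from setting each gene against the members' summed counts, a scaling that itself holds this median near 0. Without wild-type tumour 127 the median was 0.04, below the 0.05 over all tested genes in that fit. The number of members called was 0 in the fit reported and 0 with each tumour left out. It was 1, Rps3a1, relative to the members' summed counts, with a stricter filter and with tumour 14B added, and 2, Rps3a1 and Rpl30, with DESeq2 and with limma-voom with quality weights. The fold change of Rps3a1 ran from -2.34 to -2.06 except with copies added (-0.55). Alternatives that added aligned copies were chosen after seeing the data. No paired analysis was possible because the groups compared share no replicate number.

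Several small fold changes changed sign, the cause of which was not tested. With limma-voom, Rpl10a was 0.21, Rpl23a 0.36, Rpl10 -0.0354, Rpl7l1 0.12 and Rpl39l 0.46. With copies added by name, Rpl10a was 0.0290. For Rps12, Rplp0 and Rpl22 the values were -0.0180, -0.0334 and -0.0210 (upper quartile), -0.0263, -0.0483 and -0.0310 (library size alone), -0.12, -0.10 and -0.14 (relative to the members' summed counts), -0.000532, -0.00252 and -0.0272 (tumour 14B added) and -0.0342, -0.0647 and -0.0499 (14B in place of 14A). Rpl11 was -0.10 relative to the members' summed counts and -0.00273 with 14B in place of 14A. With 1 tumour left out, ranges crossed 0 for Rpl7 (-0.46 to 0.0727), Rpl4 (-0.39 to 0.13), Rpl10a (-0.34 to 0.34), Rps12 (-0.20 to 0.21), Rplp0 (-0.26 to 0.43), Rpl23a (-0.59 to 0.79), Rpl35 (-0.18 to 0.68), Rps3 (-0.0125 to 0.43), Rpl11 (-0.13 to 0.19), Rpl22 (-0.13 to 0.14), Rpl10 (-0.00232 to 0.47), Rps4x (-0.0402 to 0.44), Rpl7l1 (-0.42 to 0.33) and Rpl39l (-1.83 to 0.39). Depth did not limit the members, but Rpl24 and most copies were counted too rarely for a test.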
